A study of Mus musculus with 28 samples.

Results

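The hypoxia response genes described here are the transcription factor subunit Hif1a, its hydroxylases Egln1 and Egln3, and 6 genes known to rise when oxygen is low, Bnip3, Ankrd37, Slc2a1, Ddit4, Vegfa and Ndrg1. They were taken by name, and all 9 have a row in both tables, among 12721 genes in the in vitro table and 12948 in the co-culture table. The cells are MC38, a mouse colon adenocarcinoma line, grown in DMEM with serum. The in vitro table has 5 groups of 2 libraries, namely untreated MC38 cells and cells given TNF, IFNG (interferon gamma), both cytokines, or supernatant taken from MC38 and T cells. The co-culture table has 3 groups of 3 libraries, namely MC38 alone, MC38 with OT1 T cells plus an isotype control antibody, and MC38 with OT1 T cells plus anti-PD1, an antibody to an inhibitory receptor of T cells. Both control groups are the same line without cytokine, T cells or antibody. OT1 T cells are CD8 T cells with 1 transgenic receptor for an ovalbumin peptide. Cytokines and T cells were applied for 6 hours per the labels, which give no time for the supernatant, the untreated cells or MC38 alone.

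In cells with enough oxygen, prolyl hydroxylases (Egln1 encodes PHD2, Egln3 encodes PHD3) mark the HIF-1 alpha protein for the VHL ubiquitin ligase and the proteasome. When oxygen falls the mark is not set, HIF-1 alpha accumulates, pairs with ARNT and binds a short core sequence near its targets. Control is therefore mainly at the protein level, and the Hif1a transcript is not a measure of HIF activity. Egln1 and Egln3 are themselves induced in hypoxia, as a feedback. The targets raise glucose uptake (Slc2a1, the glucose transporter GLUT1), vessel growth (Vegfa), removal of mitochondria (Bnip3) and restraint of mTORC1 (Ddit4, also called REDD1). Ndrg1 is a stress-induced gene of epithelial and tumour cells, and Ankrd37 encodes a small ankyrin repeat protein.

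The HIF core is spelled ACGTG or GCGTG, and both were looked for on both strands of the RefSeq promoter windows (GRCm38.p6, 250 bases before to 50 after the annotated start). Windows were matched for 8 of the 9 genes by symbol, all but Ndrg1. The 3 genes with the deepest falls in co-culture, Ankrd37, Ddit4 and Bnip3, are shown with Hif1a, whose level did not pass any test. Each line is the 250 bases before the start, 5′ to 3′ in the direction of the gene, with cores on either strand in capitals (a core on the opposite strand reads CACGT or CACGC).
Bnip3 (chr7:138909507-138909756, minus strand): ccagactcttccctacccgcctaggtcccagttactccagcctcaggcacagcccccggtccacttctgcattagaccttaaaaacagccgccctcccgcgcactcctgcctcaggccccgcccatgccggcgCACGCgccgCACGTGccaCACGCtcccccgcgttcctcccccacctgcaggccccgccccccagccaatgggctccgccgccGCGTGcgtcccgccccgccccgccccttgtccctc
Ankrd37 (chr8:45999851-46000100, minus strand): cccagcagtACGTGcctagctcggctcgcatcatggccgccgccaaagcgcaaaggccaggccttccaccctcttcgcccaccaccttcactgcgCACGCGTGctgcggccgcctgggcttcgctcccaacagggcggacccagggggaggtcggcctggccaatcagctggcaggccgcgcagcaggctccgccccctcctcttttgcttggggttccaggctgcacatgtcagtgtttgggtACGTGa
Ddit4 (chr10:59951771-59952020, minus strand): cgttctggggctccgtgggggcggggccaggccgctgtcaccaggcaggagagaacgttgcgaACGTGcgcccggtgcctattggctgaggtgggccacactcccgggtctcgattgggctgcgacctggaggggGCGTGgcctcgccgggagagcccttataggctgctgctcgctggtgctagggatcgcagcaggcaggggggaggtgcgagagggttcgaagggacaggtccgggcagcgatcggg
Hif1a (chr12:73907617-73907866, plus strand): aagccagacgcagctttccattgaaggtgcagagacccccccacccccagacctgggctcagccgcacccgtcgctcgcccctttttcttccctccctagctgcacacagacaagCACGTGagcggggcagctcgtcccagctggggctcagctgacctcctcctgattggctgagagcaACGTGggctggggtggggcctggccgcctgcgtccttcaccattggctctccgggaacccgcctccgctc

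Over the full windows Bnip3 had 5 cores, Ankrd37 had 4, Hif1a had 3, Egln1, Slc2a1 and Ddit4 had 2 each, and Egln3 had 1. Vegfa has a pair of annotated starts, 1 window with 0 cores and 1 with 2. A core and its reverse complement overlap within CACGTG, which occurs once in Bnip3 and once in Hif1a and counts as 2. At least 1 core is common, found in 43.8% of 32851 windows of all genes, while 20.6% have at least 2 and 8.93% at least 3. Bnip3 and Ankrd37, with the most cores, were among the 3 deepest falls in co-culture. Hif1a, with 3 cores, had no called change, and Egln3, with 1 core, fell 3.16-fold with T cells and isotype antibody. The number of cores thus did not strictly order the changes, and a relation between them was not tested. These matches describe letters only, not binding.

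Values are the deposited log2 CPM (read counts scaled to a common library total, on a log2 scale), so a difference of 1 is a doubling. The libraries are of the QuantSeq kind, which reads the 3′ end of a transcript, so a level does not grow with transcript length. Depth was estimated from the tied steps of low values at 3360000 to 11200000 reads for the in vitro libraries and 3730000 to 11000000 for those of the co-culture table. Errors are limma's standard error (SE) on differences and the standard deviation (SD) on group levels, and adjusted p-values are limma's, over all genes tested in the table. The labels do not say whether the libraries of a group were separate cultures, so the tests weigh the spread between these libraries, which may be technical. The description of 1 isotype library says OT2 instead of OT1, and the third anti-PD1 library is called untreated by 2 of its labels and anti-PD1 by its description, which placed it here. The third library of MC38 alone, the shallowest of its table, held T cell transcripts. Of 14 T cell markers listed 11 have a row in this table (Cd3e, Cd3g and Trac do not), and in that library they summed to 49.5 CPM, against 3.16 and 3.35 CPM in the other 2 libraries of that group, 143 to 174 with isotype antibody and 148 to 168 with anti-PD1. Several counts are also given without the third libraries of these 2 groups. As a check of the treatments, the NF-kB target Nfkbia and the interferon target Irf1 were 3.91 ± 0.09 and 3.35 ± 0.11 higher with T cells and isotype antibody than in MC38 alone. In vitro, against untreated cells, Nfkbia was 3.39 ± 0.14 higher with TNF and Irf1 3.06 ± 0.12 higher with IFNG. With supernatant Irf1 was 3.18 ± 0.12 higher, while Nfkbia did not pass (0.30 ± 0.14, adjusted p = 0.864). The libraries carry little of the epithelial markers Epcam, Krt8, Krt18 and Krt19, at most 2.36 on the log2 scale, whereas Vim stood at 10.05 to 10.44 in each co-culture table library. Epcam, Krt8, Krt18, Krt19 and Cdh1 were each highest in the first anti-PD1 library, where Cdh1 reached 4.44. Epcam stood at 2.36 there and at −1.63 in both other anti-PD1 libraries.

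MC38 cells cultured with OT1 T cells had far less of the hypoxia response transcripts than MC38 cells alone. With the isotype antibody 7 of the 9 genes fell and none rose, where 6.22% of all 12707 genes tested fell and 7.64% rose. The median change of the 9 was −1.20, against −0.06 for all genes. With anti-PD1 the same 7 fell and none rose (7.71% of all genes fell and 8.42% rose), with a median of −1.12 against −0.06. These comparisons share the MC38 alone libraries. The falls ran from Vegfa to Ankrd37, and Ndrg1 and Hif1a were the 2 genes that did not pass in either comparison. In libraries of mixed cells, fewer cells of a type and less RNA per cell cannot be told apart from 1 gene alone. Vim had a mean of 10.33 in MC38 alone, 10.15 with isotype antibody and 10.26 with anti-PD1. The part of cell mixture in the falls was not tested.

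**Figure D1:**
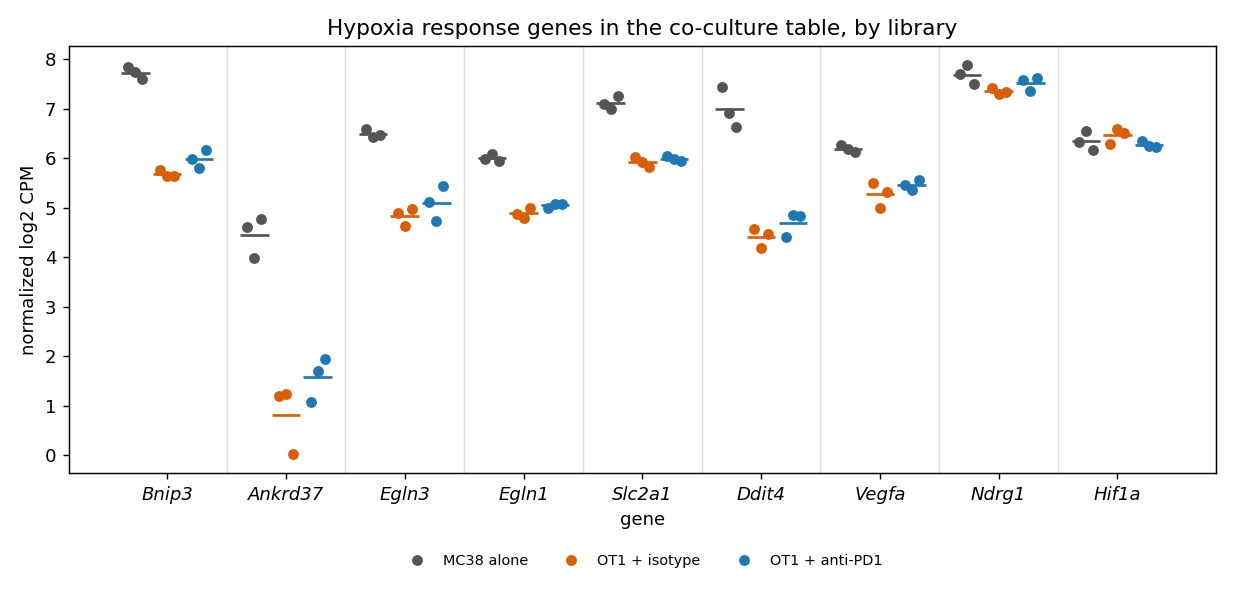
Level of each hypoxia response gene (x axis) in the 9 co-culture table libraries, as deposited log2 CPM (y axis). Points are libraries, bars are group means of 3. For the 7 genes called as fallen the MC38 alone points lie above all 6 points with OT1 T cells, while for Ndrg1 and Hif1a the points lie close together.

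Hif1a itself, the oxygen-regulated subunit, stood at 6.34, 6.56 and 6.16 in the 3 libraries of MC38 alone. It was at 6.29, 6.59 and 6.52 with isotype antibody and at 6.35, 6.25 and 6.22 with anti-PD1. The 3 groups overlap throughout. The difference from MC38 alone was 0.12 ± 0.13 with isotype antibody (95% confidence interval −0.17 to 0.41, adjusted p = 0.601). With anti-PD1 it was −0.08 ± 0.13 (interval −0.37 to 0.21, adjusted p = 0.714). With 3 libraries a group, true changes up to these bounds are not excluded.

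Both hydroxylase genes fell. Egln3 stood at 6.59, 6.43 and 6.47 in MC38 alone, at 4.89, 4.64 and 4.97 with isotype antibody, and at 5.11, 4.74 and 5.45 with anti-PD1. The lowest library of MC38 alone lies about a full log2 unit above the highest co-culture library. Egln3 fell by 1.66 ± 0.18 (adjusted p = 0.000149) and by 1.40 ± 0.18 (adjusted p = 0.000502). Egln1, the main oxygen sensor of most cells, stood at 5.98, 6.08 and 5.94 alone, at 4.88, 4.80 and 5.00 with isotype antibody and at 5.00, 5.07 and 5.07 with anti-PD1. The 9 libraries thus form a high group of 3 and a narrow low group of 6. Egln1 fell to 46.3% of its level in MC38 alone with isotype antibody (−1.11 ± 0.11, adjusted p = 9.16e-05) and to 51.5% with anti-PD1 (−0.96 ± 0.11, adjusted p = 0.000267).

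Ankrd37 had the deepest fall of the 9 genes in both comparisons. Its levels were 4.61, 3.99 and 4.77 in MC38 alone, 1.19, 1.24 and 0.03 with isotype antibody, and 1.08, 1.7 and 1.95 with anti-PD1. In co-culture it sat among the low genes of its library, at percentile 5.67 to 20.8 and about 9 to 43 read steps (distinct low values, near to read counts), where MC38 alone had 100 to 179. Ankrd37 fell 12.4-fold with isotype antibody (−3.64 ± 0.39, adjusted p = 0.000149) and 7.35-fold with anti-PD1 (−2.88 ± 0.39, adjusted p = 0.000739). At this depth its fold is the least precise of the 9, with an interval of −4.49 to −2.78 for isotype antibody. Its 3′ end overlaps that of Ufsp2, and its body Lrp2bp, which has no row in the tables, both on the other strand (Ankrd37 lies at chr8:45996902-46005707, minus strand, GRCm38), and it is not known here whether counting used the strand. Ufsp2 stood 0.29 ± 0.12 higher with isotype antibody (adjusted p = 0.126) and 0.37 ± 0.12 higher with anti-PD1 (adjusted p = 0.0556).

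Ddit4, the mTORC1 inhibitor, stood at 7.44, 6.91 and 6.63 in MC38 alone, at 4.58, 4.19 and 4.47 with isotype antibody and at 4.40, 4.85 and 4.83 with anti-PD1. It varied most within MC38 alone among the well-expressed genes (SD 0.41), yet every co-culture library lay below every library of MC38 alone. Ddit4 fell 5.97-fold (−2.58 ± 0.21, adjusted p = 2.8e-05) and 4.92-fold (−2.30 ± 0.21, adjusted p = 6.51e-05). Bnip3, the mitophagy receptor, stood at 7.85, 7.75 and 7.60 alone, at 5.77, 5.65 and 5.64 with isotype antibody and at 5.98, 5.81 and 6.16 with anti-PD1. The groups are tight, with SDs of 0.12, 0.07 and 0.18, and it had the smallest adjusted p of the 9. Bnip3 fell to 24.2% of its level in MC38 alone (−2.05 ± 0.12, adjusted p = 2.24e-06) and to 29.8% (−1.75 ± 0.12, adjusted p = 6.54e-06).

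Slc2a1, which brings glucose into the cell, stood at 7.09, 7.00 and 7.27 in MC38 alone, at 6.03, 5.92 and 5.82 with isotype antibody and at 6.05, 5.99 and 5.94 with anti-PD1. All 6 libraries with T cells lie between 5.82 and 6.05, far below MC38 alone. Slc2a1 fell 2.29-fold and 2.18-fold (−1.20 ± 0.11, adjusted p = 5.99e-05, and −1.12 ± 0.11, adjusted p = 9.22e-05). Vegfa, the vessel growth factor, stood at 6.26, 6.18 and 6.13 alone, at 5.50, 4.99 and 5.32 with isotype antibody and at 5.47, 5.36 and 5.56 with anti-PD1. All 6 libraries with T cells lie below MC38 alone, although its fall was the smallest of the 7, and the 2 antibody groups overlap each other. Vegfa fell by 0.92 ± 0.14 (adjusted p = 0.00179) and by 0.72 ± 0.14 (adjusted p = 0.00695).

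Ndrg1 stood apart among the targets. It was at 7.70, 7.88 and 7.50 in MC38 alone, at 7.43, 7.30 and 7.35 with isotype antibody and at 7.58, 7.37 and 7.63 with anti-PD1. The anti-PD1 libraries overlap those of MC38 alone, and the isotype libraries lie just below them. The differences were −0.33 ± 0.12 (interval −0.60 to −0.07, adjusted p = 0.1) and −0.17 ± 0.12 (interval −0.43 to 0.10, adjusted p = 0.383). The lower bounds of both intervals are above the upper bound of the Bnip3 fall, −1.78 and −1.48. Without the third library of MC38 alone, Ndrg1 passed for isotype antibody (−0.43, adjusted p = 0.0267), and 8 of the 9 genes then fell.

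The 7 falls stayed past the threshold without the libraries in doubt. The third library of MC38 alone carried T cell transcripts. It was the lowest of its group for Bnip3 (7.60), Egln1 (5.94), Ddit4 (6.63), Vegfa (6.13), Ndrg1 (7.50) and Hif1a (6.16). It was the highest for Slc2a1 (7.27) and Ankrd37 (4.77), and lay between the other libraries for Egln3 (6.47). For the 7 genes that fell it still lay above every library with T cells. All 11 T cell markers were higher in that library than in the other 2, and 6 of them reached the range of the co-culture libraries, among them Ptprc at 3.15 and Cd3d at 2.19. Ifng was not among these, at 1.85 against 6.27 to 6.66 with isotype antibody. Without that library and the third anti-PD1 library, 8 and 7 genes fell. The share of mitochondrial transcripts moved with the groups as well, at 1.58% to 1.9% in MC38 alone, 0.768% to 0.975% with isotype antibody and 0.9% to 1.27% with anti-PD1, and its part in the result was not tested.

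Anti-PD1 was not distinguished from isotype antibody for any of the hypoxia response genes. No gene of the 12707 tested passed in limma between the antibodies (0%), and 347 had an unadjusted p under 0.05. Bnip3 was the 1 gene of the 9 among these, 0.30 ± 0.12 higher with anti-PD1 (interval 0.03 to 0.57, unadjusted p = 0.0323, adjusted p = 1). The difference for Ankrd37 was 0.76 ± 0.39 (interval −0.10 to 1.62), and for the other 6 genes besides Hif1a it ran from 0.07 to 0.28. For Slc2a1 the interval of the difference was −0.18 to 0.32 and for Egln1 −0.09 to 0.40. For Hif1a, 0.20 lower with anti-PD1 (−0.20 ± 0.13), it was −0.49 to 0.09. These intervals leave room for a partial difference between the antibodies.

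**Figure D2:**
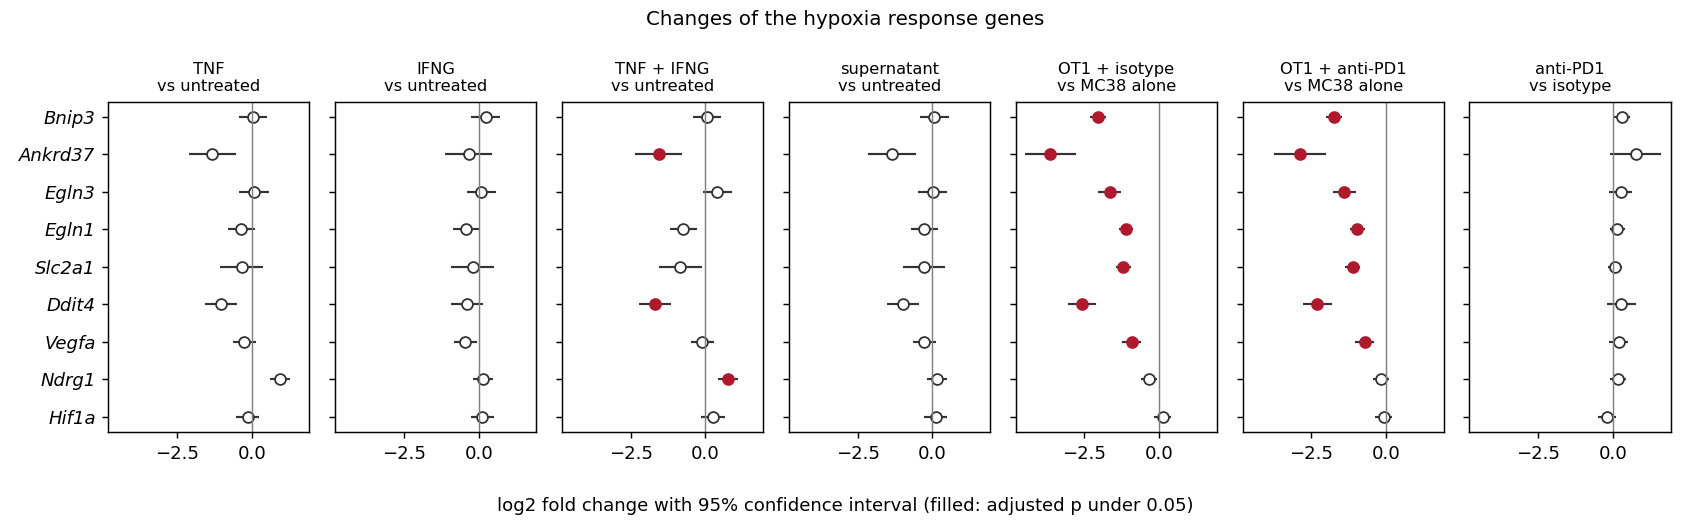
Log2 fold change of the 9 hypoxia response genes with its 95% confidence interval (x axis), by comparison (panels). Filled points have an adjusted p under 0.05. Of the comparisons with a called gene, both with OT1 T cells have 7 filled points, all below 0, and TNF with IFNG has 3, of which Ndrg1 lies above 0.

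The cytokines alone gave another picture. With TNF, 6 hours after treatment, no hypoxia response gene passed, where 0.275% of all 12720 genes tested were called by limma and 797 had an unadjusted p under 0.05. With both cytokines Ddit4 and Ankrd37 fell and Ndrg1 rose, while 4.25% of all genes fell and 4.77% rose. The median change of the 9 with both cytokines was −0.11, against 0.02 for all genes. Bnip3 and Egln3, which fell with T cells, stood at 0.05 ± 0.21 and 0.39 ± 0.21 with both cytokines. The tables were normalized apart, so the changes in one were not tested against those in the other.

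**Figure D3:**
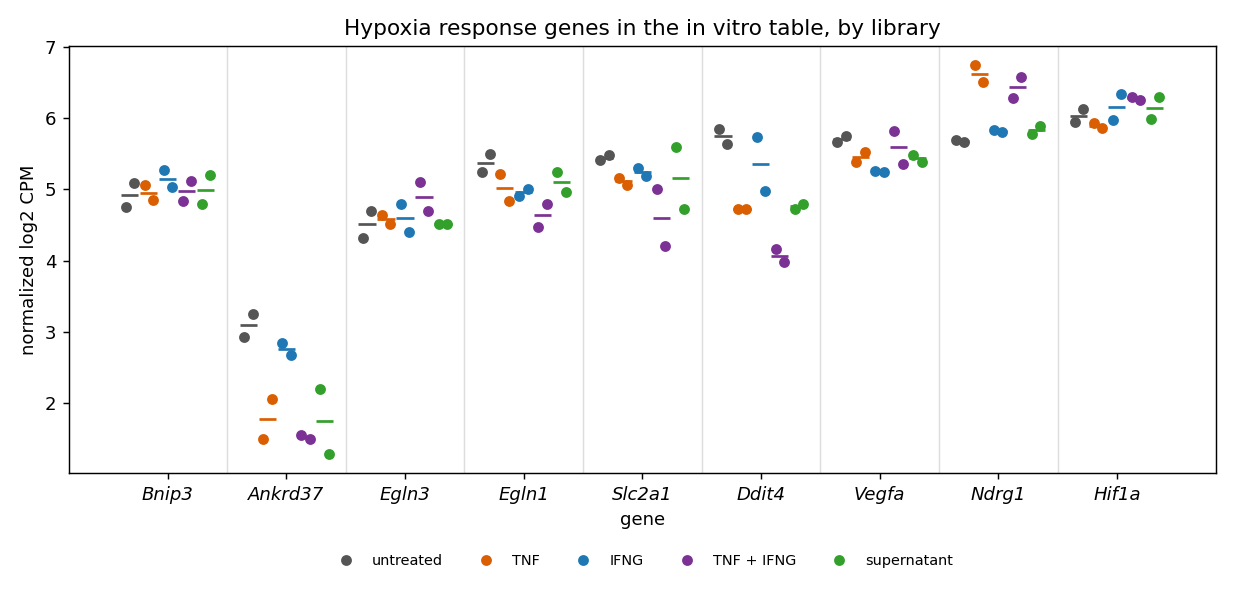
Level of each hypoxia response gene (x axis) in the 10 in vitro libraries, as deposited log2 CPM (y axis). Points are libraries, bars are means of 2. Ddit4 is lowest with both cytokines, Ankrd37 lies below the untreated points in every treated library, Ndrg1 is highest in the 4 libraries given TNF, and the Bnip3 points of all groups overlap.

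Ddit4 stood at 5.85 and 5.64 in untreated cells, 4.72 and 4.73 with TNF, 4.97 and 5.74 with IFNG, 3.98 and 4.16 with both, and 4.73 and 4.80 with supernatant. The libraries with both cytokines are the lowest, and those with TNF or supernatant also lie below the untreated ones. Ddit4 fell 3.2-fold with both cytokines (−1.68 ± 0.24, adjusted p = 0.00958). Its differences with TNF (−1.02 ± 0.24, adjusted p = 0.245), supernatant (−0.98 ± 0.24, adjusted p = 0.309) and IFNG (−0.39 ± 0.24, adjusted p = 0.551) did not pass.

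Ankrd37 stood at 2.93 and 3.25 in untreated cells, 1.49 and 2.05 with TNF, 2.68 and 2.84 with IFNG, 1.49 and 1.55 with both, and 2.20 and 1.29 with supernatant. Every treated library lies below both untreated libraries, at between 11 and 73 read steps against 50 and 76. Ankrd37 fell to 33.6% of its untreated level with both cytokines (−1.57 ± 0.35, adjusted p = 0.0345). The differences with TNF (−1.32 ± 0.35, adjusted p = 0.369) and supernatant (−1.35 ± 0.35, adjusted p = 0.406) were of like size and did not pass.

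Ndrg1 stood at 5.69 and 5.67 in untreated cells, 6.74 and 6.51 with TNF, 5.81 and 5.83 with IFNG, 6.58 and 6.28 with both, and 5.78 and 5.89 with supernatant. The 4 libraries that received TNF are the 4 highest. Ndrg1 rose 1.68-fold with both cytokines (0.75 ± 0.15, adjusted p = 0.027), and with TNF it was 1.93-fold higher without passing (0.94 ± 0.15, adjusted p = 0.056). With TNF it passed once library weights were used (adjusted p = 0.00908). The 3 calls with both cytokines rest on the 2 untreated libraries: without either one, none of the 9 genes passed.

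Of the remaining genes, Egln1 was at 5.25 and 5.49 in untreated cells and at 4.80 and 4.47 with both cytokines, a difference of −0.74 ± 0.20 (adjusted p = 0.0539). Slc2a1 was at 5.41 and 5.48 untreated and at 4.20 and 5.00 with both, a difference of −0.84 ± 0.31 (adjusted p = 0.112), with those 2 libraries far apart. Bnip3 ranged from 4.75 to 5.27 over all 10 libraries, Egln3 from 4.32 to 5.10, Vegfa from 5.24 to 5.82 and Hif1a from 5.86 to 6.34. For these 4 genes the lowest to the highest library of the whole table span less than the fall of Bnip3 or Egln3 in co-culture. The intervals with both cytokines were −0.43 to 0.52 for Bnip3 and −0.15 to 0.64 for Hif1a.

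IFNG alone called none of the 9 genes, where 0.354% of all genes were called and 1361 had an unadjusted p under 0.05. The nearest was Vegfa, at 5.24 and 5.26 against 5.66 and 5.75 untreated (−0.45 ± 0.17, unadjusted p = 0.0282, adjusted p = 0.443). Supernatant called none either, where 0.448% of all genes were called and 652 had an unadjusted p under 0.05. For the test of whether the pair of cytokines departs from the sum of the single changes on the log2 scale, 0.0157% of all genes were called, none of them a hypoxia response gene, and 500 had an unadjusted p under 0.05. Vegfa had the smallest p of the 9 there (0.58 ± 0.24, interval 0.04 to 1.13, adjusted p = 0.962). For Ddit4 and Ankrd37 the departures were −0.27 ± 0.34 and 0.08 ± 0.49. Between supernatant and both cytokines, again none of the 9 passed, with 0.236% of all genes called and 2132 at an unadjusted p under 0.05. Ndrg1 stood lower with supernatant (−0.59 ± 0.15, adjusted p = 0.151) and Ddit4 higher (0.70 ± 0.24, adjusted p = 0.223).

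The rank of a gene among the 12274 symbols common to both tables gives a scale that can be set side by side, although the tables were normalized apart and no test was made across them. Bnip3 ranked at percentile 61.9 to 67.3 in untreated cells of the in vitro table, at 93.9 to 94.9 in MC38 alone of the co-culture table, and at 76 to 77.8 with T cells and isotype antibody. Slc2a1 ranked at 72 to 73, 90.3 to 92.1 and 78.4 to 81.1 in the same groups, and Egln3 at 55 to 61, 85.4 to 86.8 and 60.5 to 66.2. For these 3 genes the MC38 alone libraries, not those with T cells, are the farther from the untreated in vitro cells. Ddit4 ranked at 75.1 to 77.8, 87.2 to 93 and 52.9 to 59.5, and Ankrd37 at 33.8 to 38.4, 49.6 to 62.7 and 5.67 to 14.1, so that both went below the untreated in vitro cells. Egln1 (69.7 to 73.2, 80 to 81.6 and 63.3 to 66.5) and Vegfa (75.4 to 76.5, 82.1 to 83.6 and 66.4 to 74.2) also went below them. For all 7 genes that fell with T cells, each library of MC38 alone ranked above every library of the other groups of both tables. Within the co-culture table this follows from choosing genes that fell. The share of the 12274 genes with such an order was not computed. Ndrg1 ranked at 75.5 to 75.8, 93.4 to 95 and 92.3 to 93. Hif1a kept a narrow band, 78.9 to 81.1, 82.5 to 86.6 and 83.9 to 86.9. The labels do not say how the 2 control cultures differed.

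**Figure D4:**
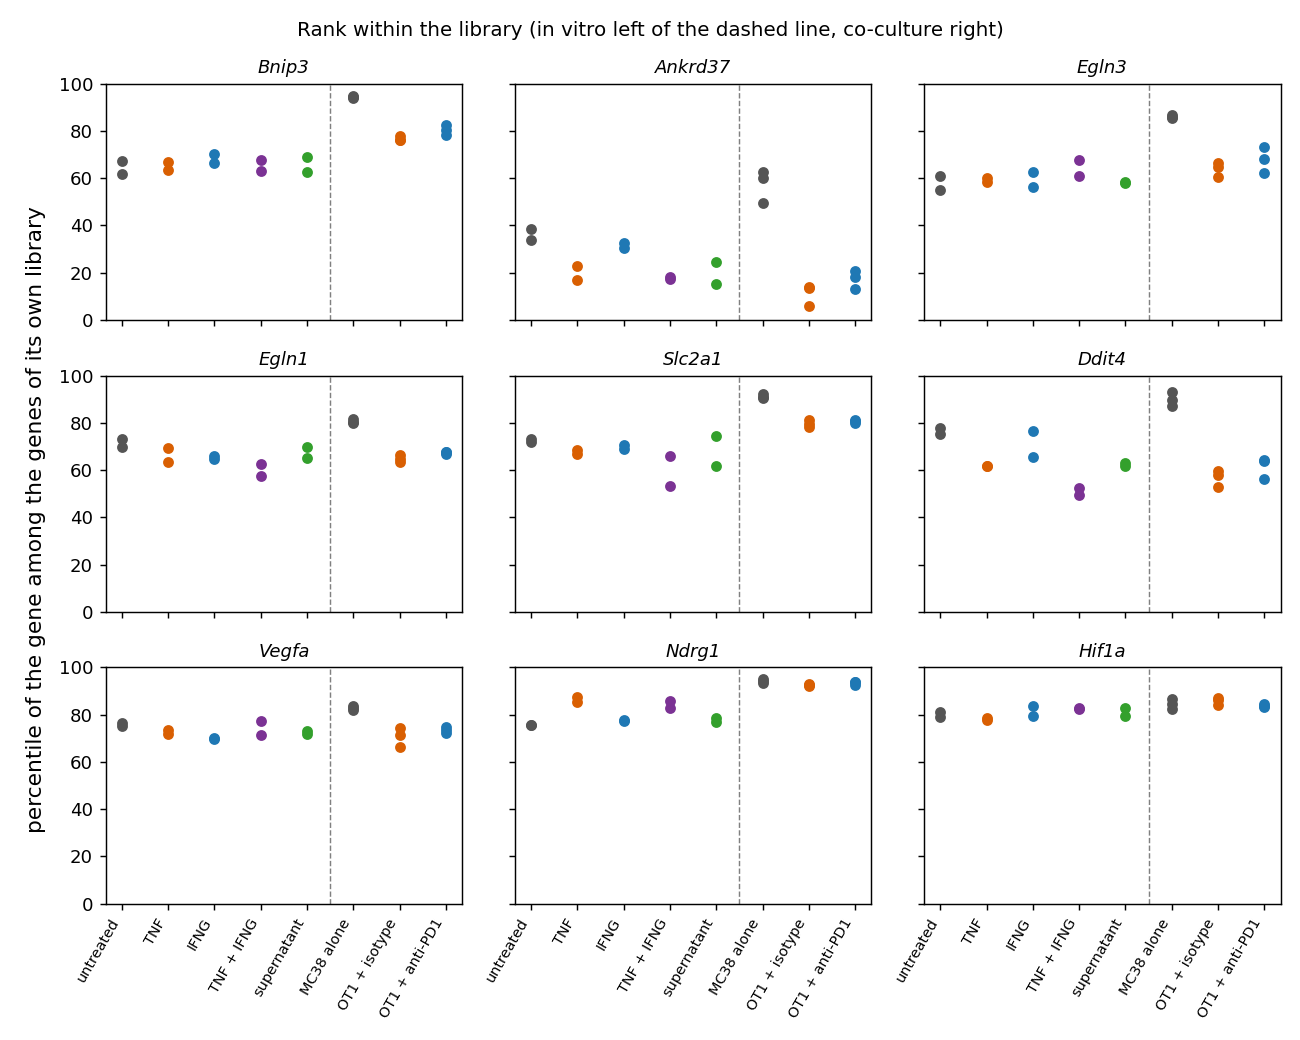
Percentile of each hypoxia response gene among the 12274 common genes of its own library (y axis), by group (x axis), with in vitro groups left of the dashed line. Points are libraries. For all 7 genes that fell with T cells the MC38 alone libraries stand highest of all groups. For Ndrg1 the co-culture table as a whole stands high, and Hif1a stays within a narrow band.

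Other genes known to rise in hypoxia moved in both directions in co-culture. Of 22 further HIF targets outside glycolysis that were tested (of 26 listed), 11 fell and 2 rose with isotype antibody. Over all genes 6.22% fell and 7.64% rose. The median change of the list was −0.48, against −0.06 for all genes. The largest changes were those of the histone demethylase genes Kdm4b (−2.12 ± 0.32, adjusted p = 0.0016) and Kdm3a (−1.57 ± 0.18, adjusted p = 0.000277). Stc2, which encodes a secreted glycoprotein, and Pfkfb3, an activator of glycolysis, rose by 1.30 ± 0.19 and 1.04 ± 0.17 (adjusted p = 0.00155 and 0.00241). With anti-PD1, 11 fell and 3 rose (median −0.38), where 7.71% and 8.42% of all genes did. They were led by Kdm4b (−1.94 ± 0.32), Kdm3a (−1.54 ± 0.18), Stc2 (1.37 ± 0.19) and Pfkfb3 (1.30 ± 0.17). Without the first isotype library 7 fell and 2 rose with isotype antibody, and without the first or the third anti-PD1 library 7 fell and 2 rose with anti-PD1. Calls over all genes fell too, from 980 to 520 falls with anti-PD1 without the third anti-PD1 library. Without the third library of MC38 alone 13 fell and 2 rose with each antibody (medians −0.61 and −0.57), and 1026 and 1244 of all genes fell.

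**Figure D5:**
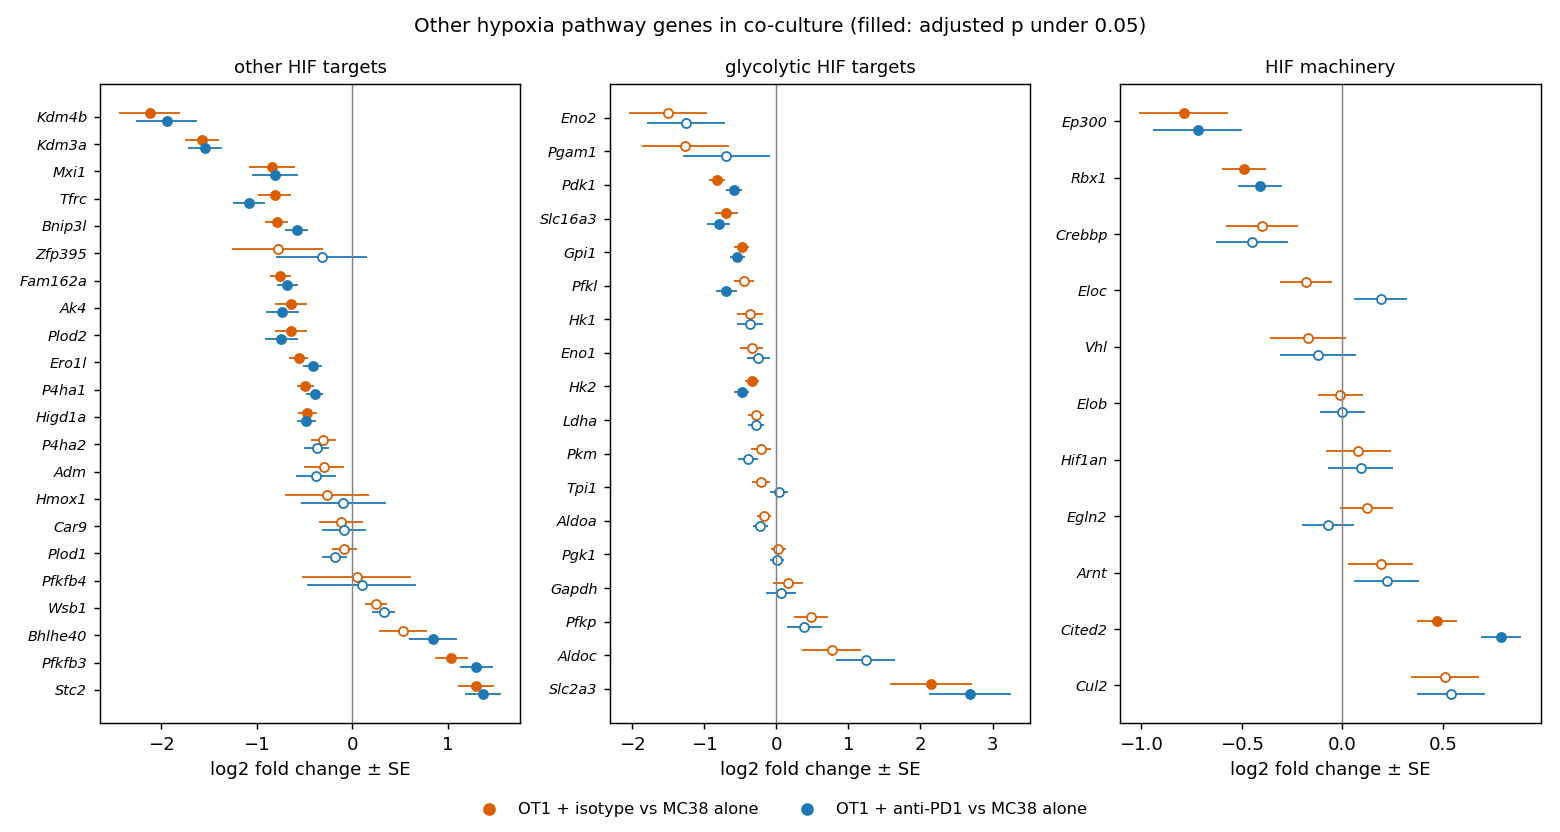
Log2 fold change ± SE against MC38 alone (x axis) of the other hypoxia pathway genes tested, by list (panels), with isotype antibody in orange and anti-PD1 in blue. Filled points have an adjusted p under 0.05. Most filled points of the HIF targets lie below 0, with Kdm4b and Kdm3a lowest, while Stc2 and Pfkfb3 lie above 0 with both antibodies.

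Fewer glycolytic HIF targets were called. Of 18 genes, 4 fell and 1 rose with isotype antibody, where 6.22% and 7.64% of all genes did, with a median of −0.31 (−0.17, with 5 falls and 1 rise, without the third library of MC38 alone). Pdk1, which keeps pyruvate out of mitochondria, fell by 0.82 ± 0.11 (adjusted p = 0.000708), the lactate exporter Slc16a3 by 0.69 ± 0.16 and Gpi1 by 0.48 ± 0.10. Slc2a3, a neuronal and lymphocyte glucose transporter, rose by 2.15 ± 0.57 (adjusted p = 0.032), from levels of −1.63 to 0.29 in MC38 alone, close to the bottom of the table. With anti-PD1, 5 fell and 1 rose (median −0.32), where 7.71% and 8.42% of all genes did. Among them were Slc16a3 (−0.80 ± 0.16), Pfkl (−0.69 ± 0.14) and Pdk1 (−0.59 ± 0.11), with Slc2a3 at 2.69 ± 0.57. Of the 11 T cell markers 6 rose with isotype antibody and 5 with anti-PD1, and the part of T cell RNA in the Slc2a3 value was not tested. With isotype antibody, leaving out the first or second library of MC38 alone, any isotype library, or the second or the third anti-PD1 library left 1 to 3 falls and no rise.

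The regulators of the pathway had a median change near 0. Of 11 other genes of the HIF machinery tested (of 14 listed), 2 fell and 1 rose with isotype antibody, where 6.22% and 7.64% of all genes did, with a median of −0.01. Without the third library of MC38 alone 1 fell and 2 rose with each antibody. The coactivator Ep300 fell by 0.79 ± 0.22 (adjusted p = 0.0383), Rbx1, a subunit of the VHL ligase, fell by 0.49 ± 0.11 (adjusted p = 0.0139), and Cited2, a hypoxia-induced inhibitor that competes with HIF for the coactivators, rose by 0.47 ± 0.10 (adjusted p = 0.0122). With anti-PD1, where 7.71% of all genes fell and 8.42% rose, the same 3 passed. Ep300 was at −0.72 ± 0.22, Rbx1 at −0.41 ± 0.11 and Cited2 at 0.79 ± 0.10. Rbx1 and Ep300 both missed the threshold with anti-PD1 without the second library of MC38 alone or the second or the third anti-PD1 library, and with isotype antibody without the first or the third isotype library, where 1 gene rose and none fell. Without both libraries in doubt 2 rose and 3 fell with isotype antibody.

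Ddit4 and Vegfa are also targets of ATF4, the transcription factor of the integrated stress response. Of 12 genes of that pathway, 3 rose and 1 fell with isotype antibody, where 7.64% and 6.22% of all genes did, with a median of 0.27. Without the third library of MC38 alone, the one with T cell transcripts, the median was 0.08, with 4 rises and 1 fall, and with anti-PD1 5 rose and 2 fell. Atf3 rose by 1.73 ± 0.41 (adjusted p = 0.0202), Sesn2 by 1.16 ± 0.33 and Atf4 by 0.65 ± 0.13, whereas Psat1, of serine synthesis, fell by 0.58 ± 0.10. With anti-PD1, 4 rose and 1 fell (median 0.35), where 8.42% and 7.71% of all genes did. They were led by Atf3 (2.78 ± 0.41), Sesn2 (1.39 ± 0.33), Trib3 (0.68 ± 0.13) and Atf4 (0.60 ± 0.13). Without the first library of MC38 alone, or the first or the second isotype library, 1 rose and 1 fell with isotype antibody, and without the third anti-PD1 library 2 rose and 1 fell with anti-PD1.

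In vitro the same lists had few calls. With TNF, Pfkfb3 was the 1 further HIF target of 22 that rose (1.12 ± 0.17, adjusted p = 0.0453), and no gene of the other 3 lists passed. Of all genes, 0.275% were called with TNF. With both cytokines 4.25% of all genes fell and 4.77% rose. Of the 22 further HIF targets P4ha1, a collagen prolyl hydroxylase subunit, and Kdm3a fell (−0.94 ± 0.24 and −0.65 ± 0.16) and Pfkfb3 rose (0.75 ± 0.17). The glycolytic genes Pfkp and Hk1 rose (0.94 ± 0.21 and 0.62 ± 0.16, 2 of 17 tested). Of the HIF machinery, 3 of 11 fell with both cytokines, with Cited2 at −1.92 ± 0.36 and Rbx1 and Elob, subunits of the VHL ligase, at −0.77 ± 0.17 and −0.50 ± 0.13. Cited2 thus fell with both cytokines and rose with T cells, in tables normalized apart. Of 11 ATF4 pathway genes Atf3 rose (3.42 ± 0.87, adjusted p = 0.0461), from a level near the bottom of the table. IFNG and supernatant called no gene of these 4 lists, where 0.354% and 0.448% of all genes were called. These calls depend on which libraries enter the fit. Libraries outside a comparison leave its difference unchanged but share its estimate of the spread. Without any 1 untreated, TNF or IFNG library each list had at most 1 call with both cytokines, and Pfkfb3 with TNF also did not pass without either library of both cytokines. Without either supernatant library the calls with both cytokines were 6, 4 and 4 for further HIF targets, glycolytic genes and ATF4 pathway genes.

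Over all 19 libraries, each value taken as the difference from the mean of the controls of its own table, the pattern of Bnip3 was most like that of Avpi1 (Pearson r = 0.99), Scd1 (0.98), Egln3 (0.97), Fundc2 (0.96) and Ndufs4 (0.96), among 7581 genes with a mean level of at least 3 in both tables. These 5 genes fell with T cells and isotype antibody, Avpi1 by 1.44 ± 0.11 and Scd1 by 0.80 ± 0.11. They were chosen for their likeness to Bnip3 over these same libraries, so their falls follow from the choice and are no separate result. Within the co-culture table, over 9 libraries that share the same 3 groups, Bnip3 had r of 0.96 to 0.99 with the other 6 genes that fell, 0.76 with Ndrg1 and −0.13 with Hif1a. These 6 genes were taken for their fall between the same groups, so the high r follows from the choice. Over the 10 in vitro libraries the r of Bnip3 with the same 6 genes ran from −0.58 (Vegfa) and −0.36 (Slc2a1) to 0.18 (Egln3). Bnip3 ranged only from 4.75 to 5.27 there, which limits what these r can show. Ankrd37 and Ddit4 kept a common order in vitro (r = 0.84), opposite to that of Ndrg1 (r = −0.71 and −0.70). For Hif1a the most similar genes were Lsm12 (0.85), Anapc5, Dnajc10 and Pacs1 (0.84 each) and Hist1h2ap (0.82). None of them passed with isotype antibody, which is no separate result either. These correlations describe 19 libraries in 8 groups and were not tested.

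Several of the 9 loci have overlapping annotated genes (GENCODE, GRCm38). Bnip3 (chr7:138890836-138909519, minus strand), Slc2a1 (chr4:119108711-119137983, plus strand), Ndrg1 (chr15:66929318-66969640, minus strand) and Hif1a (chr12:73901375-73947530, plus strand) each overlap an antisense gene with no row in the tables, so reads of a partner may be counted in them if strand was not used. Hif1a also overlaps, at its 3′ end, the protein-coding Gm49321 of the same strand, which has no row either, and strand cannot part the reads of these 2 genes. Egln3 (chr12:54178981-54203860), Egln1 (chr8:124908587-124949324), Ddit4 (chr10:59949669-59951834) and Vegfa (chr17:46016993-46032369), all on the minus strand, have no overlapping gene, and their falls in co-culture do not carry this limit.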

How the data were processed

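RNA of MC38 cells was profiled in 19 libraries with the QuantSeq 3′ mRNA kit, per the labels' protocols. The submitters' processing notes name cutadapt 1.7, HISAT2, featureCounts and limma with GRCm38, without settings. The authors deposited log2 CPM (unit read from the values), and within each table the libraries share nearly the same sorted values, as after quantile normalization. A fall of most transcripts together cannot be seen in such values. The 9 samples labelled as OT1 T cells were not analysed here, and 0 columns of other samples occurred.

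The deposited log2 values were fitted with limma 3.58.1 (R 4.3.3), 1 model per table with an intensity trend. A gene was kept where enough libraries to fill the smallest group had a log2 value of 0 or more, which left 12720 and 12707 genes. P-values are two-sided, adjusted by Benjamini-Hochberg over those genes, threshold 0.05. The fit was tested on simulated data. The 9 genes and the gene lists were chosen with earlier results of these data known. One listed gene is not reported here. Named from each further list were up to 4 genes past the threshold with the largest change, and 5 genes most like Bnip3 and Hif1a. Replicate numbers were not used to pair the libraries in the main fit. Alternatives covered the filter, pseudocount (1 CPM), trend, weights, centring, groups fitted, replicate number and each library left out.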

Additional observations from a re-analysis of the deposited data

How the results depend on the processing

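The 7 falls with T cells kept their direction and stayed past the threshold in all 126 recomputed values with each antibody. With both cytokines, 36 of 54 values for Ankrd37, Ddit4 and Ndrg1 stayed past it, 18 did not and 0 reversed. The number of the 9 genes called with both cytokines, 3, was 1 without the intensity trend and 1 with only the compared groups fitted. With 1 library left out it was 0 to 4. For TNF the number, 0, was 1 with library weights (Ndrg1), and 0 to 1 with a library left out (1 without either library of both cytokines). Without either untreated library Ddit4 had adjusted p = 0.0719 and 0.0624 with both cytokines. Egln1 passed with both cytokines without either supernatant library (adjusted p = 0.0387 and 0.0386), and Ndrg1 passed with isotype antibody under library weights (−0.40, adjusted p = 0.0259). Leaving out the 2 libraries in doubt together was chosen after seeing the data.

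With the replicate number as a block, 7 and 7 genes fell with T cells and 2 genes passed with both cytokines (Ankrd37 −1.57, adjusted p = 0.0561). Deviations of same-numbered libraries had correlations of −0.07 to 0.1 in co-culture and −0.29 to 0.09 in vitro. With 2 libraries a group the in vitro deviations mirror each other. Differently numbered libraries of both cytokines and supernatant thus had 0.29. Low correlations do not exclude a pairing. The median half-width of a 95% interval between groups was 0.59 in vitro, with 2 libraries per group, and 0.49 in co-culture, with 3. It was 0.83 for the departure of the cytokine pair from the sum of the single changes. Changes below about that size were called only for genes with narrower intervals. Ankrd37, at 9 to 43 read steps in co-culture, is limited most by depth.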
